A study of Homo sapiens with 15 samples.

Results

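The genes described here are 10 genes of the aryl hydrocarbon receptor pathway, drug metabolism and drug efflux: AHR, ARNT, AHRR, CYP1A1, CYP1B1, TIPARP, NQO1, CES1, ABCC3 and HSD11B1. They were taken by name from a table of 60675 genes, and all 10 were found in it. The filter on low counts kept 9 of the 10 and 19535 of all genes. CYP1B1 did not pass it and is given by its counts. The list was proposed with results of these data in view, and the exact values it was selected on are not recorded. CES1, ABCC3 and HSD11B1 are among the 82 genes called between the inhibitors in WT cells, so the list is treated as chosen by that difference, which is given below as a description with no p-value. The adjusted p-values of the other comparisons describe these genes and are not independent support for the list.

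RNA was measured in 15 libraries from HT1080, a human fibrosarcoma cell line, in 5 groups of 3 replicates. Lysine deacetylases (KDACs, also called HDACs) remove acetyl groups from lysines, and the study set inactivating mutations in KDAC6 and KDAC8 beside the inhibitors Tubastatin A (Tuba, directed at KDAC6) and PCI-34051 (PCI, directed at KDAC8). The 6CD1m group carries KDAC6H216A, in the first catalytic domain of KDAC6, and the 6CD2m group carries KDAC6H611A, in the second. Tubastatin A at 1 μM was given to both lines over 2 days. The 8CDm group carries KDAC8H143A and received PCI-34051 at 5 μM, also over 2 days. The remaining groups were WT cells kept for 14 days in PCI-34051 at 5 μM (WT PCI) or Tubastatin A at 1 μM (WT Tuba). Every group had therefore received an inhibitor, and untreated cells are not analysed here. Whether a mutant line is a single clone is not given in the sources used here, so a difference between lines cannot be told apart from a difference between clones.

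The aryl hydrocarbon receptor waits in the cytoplasm with chaperones until a ligand binds it. It then enters the nucleus, pairs with ARNT and switches on a battery of detoxification genes, of which CYP1A1 is the classical readout. AHRR and TIPARP are induced by the receptor and hold it back. NQO1 is induced both by this receptor and by NRF2, the regulator of the response to oxidants and electrophiles. CES1, ABCC3 and HSD11B1 belong to later or neighbouring steps: ester hydrolysis, export of conjugates, and carbonyl reduction, which includes the activation of cortisone.

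Levels are CPM, a gene's count relative to the total of its library, after scaling by TMM, a method that aligns libraries on the bulk of their genes. Library totals ran from 10932437 to 19983699 counts. Differences are log2 fold changes ± standard error from edgeR's quasi-likelihood test fitted to all 15 libraries, with p-values adjusted over all genes tested. A gene is called at a false discovery rate of 0.001, the threshold of the study. All 5 mesenchymal markers of the labelled cell type were present and summed to 5020 CPM or more in each library, while hepatocyte markers summed to at most 2.11 CPM. Leukocyte markers summed to at most 3.42 CPM and endothelial markers to at most 3.49 CPM. The epithelial list, which holds the keratins KRT8 and KRT18, summed to 369 to 525 CPM. Its EPCAM and CDH1 had 2 counts or fewer in each library. The libraries also differed in how a gene's level followed its GC content. Spearman's rho between a library's deviation and GC, across 14177 genes, was 0.0202, 0.581 and 0.571 in WT PCI, -0.358 to 0.211 in WT Tuba, -0.141 to 0.534 in 6CD1m, and -0.378 to -0.232 in 6CD2m and 8CDm. Each comparison was therefore also computed with GC offsets.

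**Figure D1:**
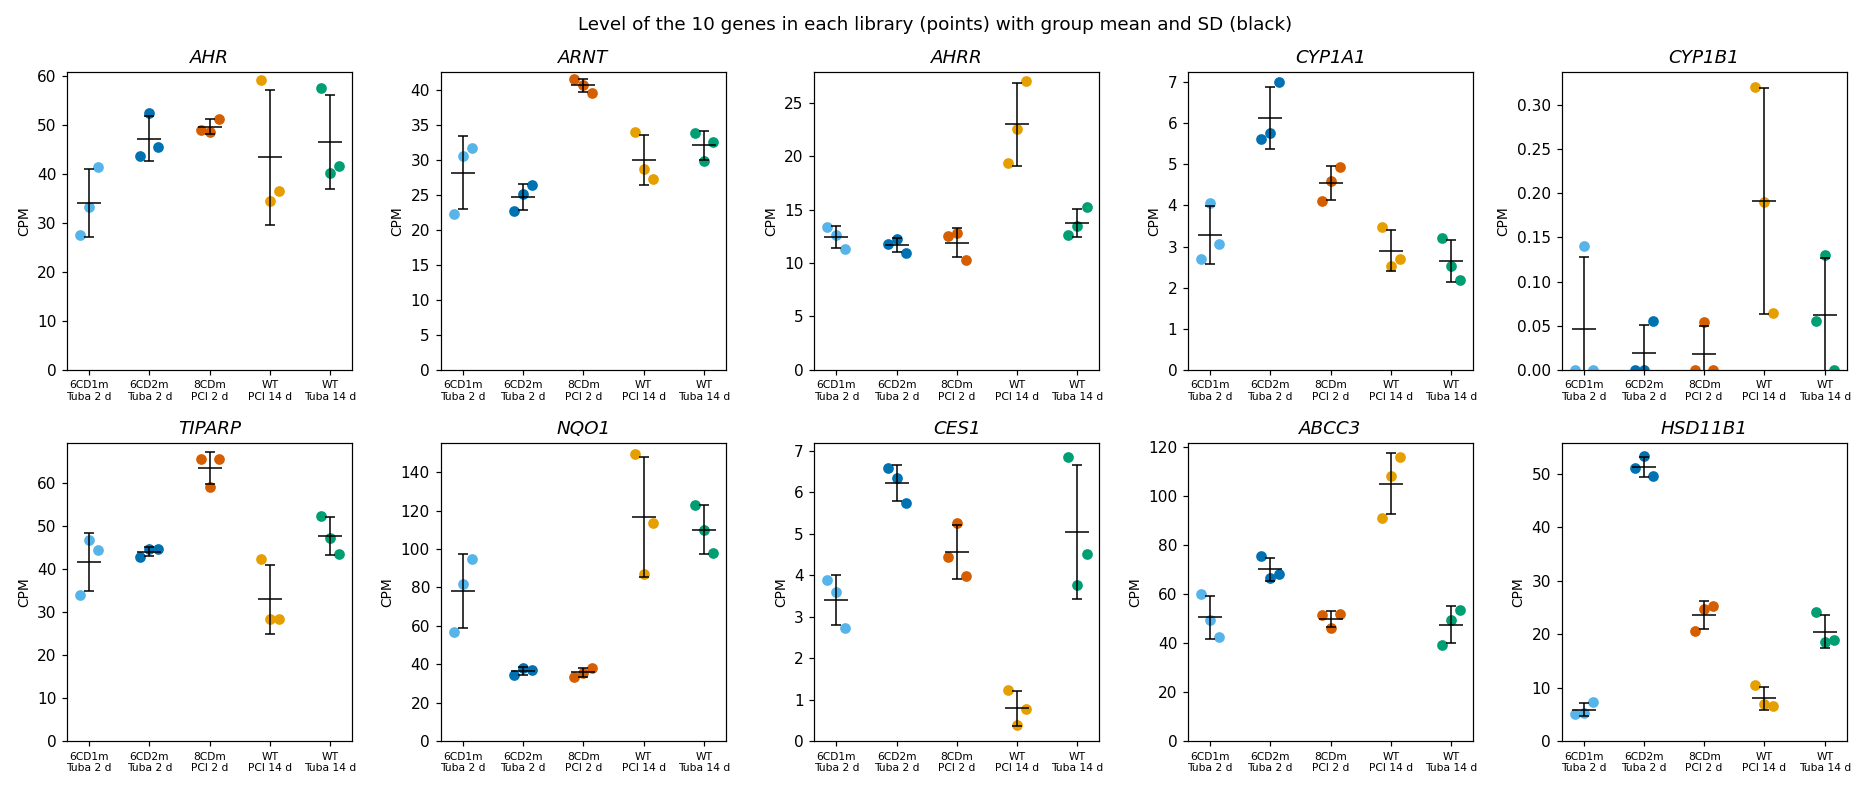
Level in CPM (linear vertical axis from 0, a separate scale for each gene) of the 10 genes in the 15 libraries. Coloured points are libraries, black bars are the group mean and SD of 3 libraries. HSD11B1 ran from 5.88 to 51.3 CPM between group means, CES1 was lowest in WT PCI at 0.793 CPM, and neighbouring groups of AHR overlapped.

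The receptor and its partner had the smallest ratios of the highest to the lowest group mean, 1.46 for AHR and 1.64 for ARNT. AHR, the receptor itself (ENSG00000106546, chr7:16916359-17346152, plus strand), was at 27.5, 33.3 and 41.3 CPM in 6CD1m, 43.6, 52.4 and 45.5 in 6CD2m, 49.0, 48.4 and 51.3 in 8CDm, 59.2, 34.4 and 36.5 in WT PCI, and 57.5, 40.2 and 41.6 in WT Tuba. Every group overlapped its neighbour in the order of the means, and replicate 1 was the highest library of both WT groups. AHR was called in none of the comparisons. Its fold changes ran from -0.47 ± 0.20 (6CD1m against 6CD2m, adjusted p = 0.073) to 0.19 ± 0.20 (8CDm against WT PCI, adjusted p = 0.48), and the latter changed sign with GC offsets (-0.22 ± 0.11, adjusted p = 0.12). In GENCODE 29 another gene model, AC019117.2, shares 29.4% of the exon bases of AHR on the same strand and has no row in the count table.

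ARNT, the nuclear partner of AHR and of the hypoxia-inducible factors (ENSG00000143437, chr1:150809705-150876768, minus strand), was at 22.3, 30.6 and 31.8 CPM in 6CD1m, 22.7, 25.1 and 26.4 in 6CD2m, 41.6, 40.8 and 39.7 in 8CDm, 34.0, 28.7 and 27.4 in WT PCI, and 33.9, 29.9 and 32.6 in WT Tuba. All 3 libraries of 8CDm lay above every other library. ARNT was lower in 6CD2m than in 8CDm by -0.72 ± 0.13 (adjusted p = 0.00057), but the call was lost in each of the 6 fits that left out 1 library (adjusted p from 0.0020 to 0.0062). Between 8CDm and WT PCI the difference was 0.44 ± 0.13 (adjusted p = 0.015).

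AHRR, the repressor of the receptor (ENSG00000063438, chr5:304176-438291, plus strand), stood out in WT PCI. It was at 19.4, 22.5 and 27.0 CPM there, against 12.7, 13.4 and 15.2 in WT Tuba, 13.4, 12.6 and 11.3 in 6CD1m, 11.8, 12.3 and 10.96 in 6CD2m, and 12.5, 12.8 and 10.3 in 8CDm. WT PCI overlapped no other group, and the other groups overlapped their neighbours. AHRR was lower in 8CDm than in WT PCI, at 11.9 ± 1.4 against 23.0 ± 3.87 CPM (SD, n = 3), a difference of -0.95 ± 0.14 (adjusted p = 0.00011). With GC offsets the difference was -0.67 ± 0.11 (adjusted p = 0.00028), AHRR having the highest GC content of the 10 genes at 57.4%. Without 8CDm replicate 3 the adjusted p was 0.0011. PDCD6, which overlaps AHRR on the same strand over 3.18% of its exon bases, was at 127 to 169 CPM, and the counting of shared reads is not given in the sources used here.

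The receptor's response element has the core GCGTG. In RefSeq's 250 bases before each start (GRCh38.p14), read on both strands, this core was found for CYP1A1, AHRR and TIPARP, and not for AHR, ARNT, NQO1 or HSD11B1. It occurs in 32.2% of 35116 such promoters, so a match is a description of these letters and not a bound site. The antioxidant core TGACNNNGC was found for ARNT only, against 10.9% of promoters. All 250 bases of the NQO1 window fall inside GENCODE 29 exons, and bases before the annotated start of that gene were not searched. The lack of a match for NQO1 therefore says nothing about sites further upstream. The matches for CYP1A1 and TIPARP are shown with 10 bases on either side, and the core in capitals (CACGC is GCGTG on the other strand). The CYP1A1 and TIPARP stretches fall inside GENCODE 29 exons. For AHRR the whole window of its first start is given, because it holds a match to the core and lies outside annotated exons. A second start with 2 further matches is not printed. HSD11B1, the gene that varied most, is shown without a core, up to its annotated first exon.
CYP1A1, chr15:74725571-74725595, minus strand, 57 to 53 bases before the start: agggaaggagGCGTGgccacacgta
TIPARP, chr3:156674372-156674396, plus strand, 208 to 204 bases before the start: cgagaaaggaCACGCcccctcgcgg
TIPARP, chr3:156674438-156674462, plus strand, 142 to 138 bases before the start: aacgaacgcgCACGCgcgcgcaggg
AHRR, chr5:321464-321713, plus strand: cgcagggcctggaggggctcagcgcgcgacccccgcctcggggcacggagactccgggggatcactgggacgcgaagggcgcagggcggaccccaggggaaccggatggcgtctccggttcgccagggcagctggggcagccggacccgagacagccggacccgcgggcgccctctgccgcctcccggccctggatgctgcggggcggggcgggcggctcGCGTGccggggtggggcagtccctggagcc
HSD11B1, chr1:209685929-209686177, plus strand: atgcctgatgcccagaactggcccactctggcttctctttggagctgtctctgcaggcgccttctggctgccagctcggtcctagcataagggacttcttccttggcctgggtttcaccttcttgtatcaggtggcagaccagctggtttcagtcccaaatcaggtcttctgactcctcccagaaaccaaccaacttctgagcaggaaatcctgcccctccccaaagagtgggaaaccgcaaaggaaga

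The targets that carry this core did not follow one order of groups. CYP1A1, the monooxygenase most used as a readout of the receptor (ENSG00000140465, chr15:74719542-74725610, minus strand), was low everywhere. It was at 2.69, 4.07 and 3.07 CPM in 6CD1m, 5.62, 5.78 and 7.01 in 6CD2m, 4.10, 4.60 and 4.94 in 8CDm, 3.47, 2.53 and 2.70 in WT PCI, and 3.21, 2.53 and 2.20 in WT Tuba. The 6CD2m libraries were above all others, followed by 8CDm, and the last 3 groups overlapped. CYP1A1 was higher in 6CD2m than in WT Tuba, at 6.14 ± 0.759 against 2.64 ± 0.515 CPM (SD, n = 3), by 1.21 ± 0.21 (adjusted p = 0.00048). The call held without WT Tuba replicate 1 and was lost in the 5 fits without another library (adjusted p up to 0.0039). Between 6CD1m and 6CD2m the difference was -0.90 ± 0.21 and missed the threshold (adjusted p = 0.0040).

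CYP1B1, a related monooxygenase (ENSG00000138061, chr2:38066973-38109902, minus strand), was close to absent. It had 0, 2 and 0 counts in 6CD1m, 0, 0 and 1 in 6CD2m, 0, 1 and 0 in 8CDm, 6, 3 and 1 in WT PCI, and 1, 2 and 0 in WT Tuba. All but 1 library had 3 counts or fewer, the limit that a count of 0 allows, and differences were not tested.

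TIPARP, a mono-ADP-ribosyltransferase that feeds back on the receptor (ENSG00000163659, chr3:156673235-156706770, plus strand), was at 33.9, 46.6 and 44.3 CPM in 6CD1m, 42.7, 44.5 and 44.6 in 6CD2m, 65.6, 59.1 and 65.5 in 8CDm, 42.2, 28.3 and 28.3 in WT PCI, and 52.2, 47.2 and 43.4 in WT Tuba. The 8CDm libraries were the highest and overlapped no other group, while the middle groups overlapped. TIPARP was 1.93-fold higher in 8CDm than in WT PCI (0.94 ± 0.15, adjusted p = 0.00023). AHRR, the other feedback gene, went the opposite way in the same comparison. With GC offsets the difference was 0.72 ± 0.09 (adjusted p = 1.2e-05). The call was lost without 8CDm replicate 1 or 3 or WT PCI replicate 2 or 3, with adjusted p up to 0.0021.

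NQO1, a quinone reductase (ENSG00000181019, chr16:69706996-69726951, minus strand), was low in the 6CD2m and 8CDm lines. It was at 57.0, 81.9 and 95.0 CPM in 6CD1m, 34.4, 38.1 and 37.2 in 6CD2m, 33.5, 35.6 and 38.2 in 8CDm, 149, 87.1 and 113 in WT PCI, and 123, 110 and 97.7 in WT Tuba. The 6CD2m and 8CDm libraries all lay below the lowest library of the other groups, and the WT groups overlapped each other. NQO1 was lower in 6CD2m than in WT Tuba by -1.59 ± 0.19 (adjusted p = 1.2e-05) and lower in 8CDm than in WT PCI by -1.70 ± 0.19 (adjusted p = 8.4e-06). Both calls held in every fit without 1 library and with GC offsets. NQO1 was also 2.13-fold higher in 6CD1m than in 6CD2m (1.09 ± 0.19, adjusted p = 0.00036), a call kept only without 6CD1m replicate 1 and lost without each other library, with adjusted p up to 0.0032. An antisense gene, AC092115.2, covers 17.7% of the exon bases of NQO1 and had at most 2 counts in any library.

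Among the genes of metabolism and efflux, HSD11B1 and CES1 had the widest ranges of the 9 tested genes, with ratios of the highest to the lowest group mean of 8.72 and 7.83, while ABCC3 had 2.21. HSD11B1, the reductase that turns cortisone into cortisol (ENSG00000117594, chr1:209686178-209734950, plus strand), was at 5.14, 5.26 and 7.25 CPM in 6CD1m, 51.0, 53.3 and 49.6 in 6CD2m, 20.6, 24.8 and 25.3 in 8CDm, 10.5, 6.95 and 6.63 in WT PCI, and 24.1, 18.5 and 19.0 in WT Tuba. The 6CD2m libraries stood alone at the top, 8CDm overlapped WT Tuba, and WT PCI overlapped 6CD1m. In bulk RNA, a change in the share of cells that express a gene cannot be told apart from a change in the amount per cell.

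The KDAC6 lines, under the same inhibitor for the same time, lay at opposite ends for HSD11B1. It was at 5.88 ± 1.19 CPM in 6CD1m and 51.3 ± 1.91 CPM in 6CD2m (SD, n = 3), a difference of -3.12 ± 0.19 (adjusted p = 1.5e-08). Against WT Tuba, HSD11B1 was higher in 6CD2m by 1.32 ± 0.17 (adjusted p = 2.3e-05) and lower in 6CD1m by -1.80 ± 0.19 (adjusted p = 3.9e-05). In a fit on the 6 libraries of 6CD1m and WT Tuba alone the latter missed the threshold (-1.77 ± 0.19, adjusted p = 0.0048). It was higher in 8CDm than in WT PCI by 1.55 ± 0.18 (adjusted p = 1.1e-05) and higher in 6CD2m than in 8CDm by 1.12 ± 0.17 (adjusted p = 0.00011). The last call was lost without 8CDm replicate 1 (adjusted p = 0.0013), and the others held in each fit without 1 library.

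CES1, a carboxylesterase that hydrolyses ester drugs (ENSG00000198848, chr16:55802851-55833337, minus strand), was lowest in WT PCI. It was at 1.23, 0.38 and 0.77 CPM there, against 6.85, 3.76 and 4.51 in WT Tuba, 3.87, 3.58 and 2.72 in 6CD1m, 6.57, 6.33 and 5.73 in 6CD2m, and 4.44, 5.26 and 3.97 in 8CDm. WT PCI overlapped no group. CES1 was 5.75-fold higher in 8CDm than in WT PCI (2.49 ± 0.33, adjusted p = 4.4e-05), and this call held in each fit without 1 library. A near-identical pseudogene, CES1P1, was listed at 0 to 24 counts per library, and reads shared by the copies may be split by the counting, so the level of CES1 is uncertain.

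ABCC3, a pump that exports glucuronides and other conjugates (ENSG00000108846, chr17:50634777-50692252, plus strand), was highest in WT PCI. It was at 91.3, 108 and 116 CPM there, against 39.1, 49.6 and 53.7 in WT Tuba, 59.9, 49.5 and 42.3 in 6CD1m, 75.6, 66.8 and 68.0 in 6CD2m, and 51.6, 46.0 and 51.8 in 8CDm. WT PCI and then 6CD2m stood above the rest, and the other groups overlapped. ABCC3 was lower in 8CDm than in WT PCI by -1.08 ± 0.14 (adjusted p = 3.6e-05), also with GC offsets (-0.84 ± 0.10, adjusted p = 9.4e-06). In 6CD2m it lay above WT Tuba by 0.56 ± 0.14 and missed the threshold (adjusted p = 0.0058), while with GC offsets it passed (0.71 ± 0.10, adjusted p = 4.1e-05).

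Per kilobase of exon, so that genes can be set beside each other, NQO1 was the most abundant of the 10 in WT PCI at 35.8 CPM per kilobase. In 6CD2m the order changed, with HSD11B1 at 33.9 and NQO1 at 11.2 CPM per kilobase. The receptor, at 4.21 to 6.14 CPM per kilobase over the groups, was above its target CYP1A1, at 0.769 to 1.79.

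**Figure D2:**
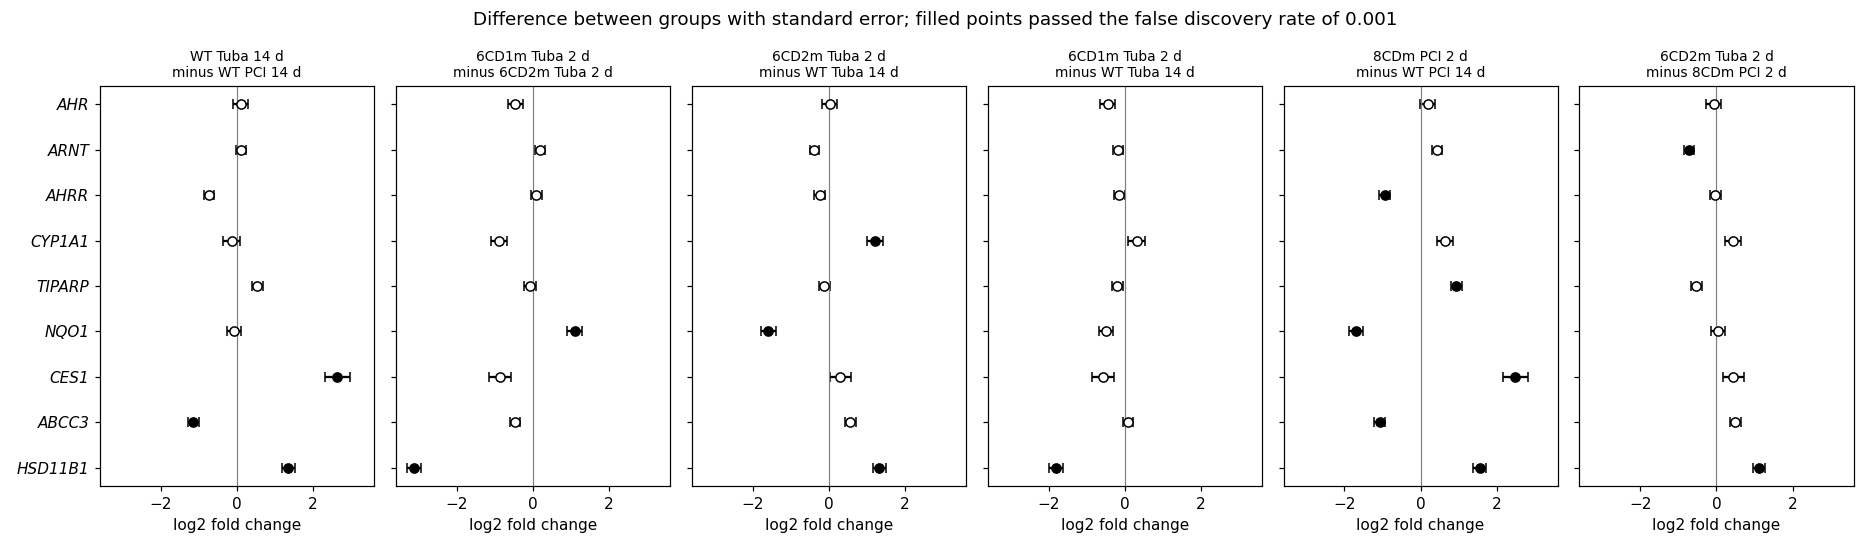
Log2 fold change (horizontal axis) of the 9 tested genes in 6 comparisons, the first-named group minus the second, with standard error bars. Filled points passed the false discovery rate of 0.001: 6 genes in 8CDm minus WT PCI, and only HSD11B1 at -1.80 in 6CD1m minus WT Tuba.

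The first comparison asks how the inhibitors differ in WT cells, at different doses and for the same 14 days. CES1 (2.64 ± 0.33) and HSD11B1 (1.35 ± 0.18) were higher and ABCC3 (-1.15 ± 0.14) lower in WT Tuba than in WT PCI. These 3 of 9 tested genes were called, where 0.42% of all genes were, and 5 of 9 had groups that did not overlap, where 25.9% of all genes did. Nothing is read from these counts, since this contrast may have chosen the genes. Replicate 1 of both groups deviated together here, and so did replicates 2 and 3, also across numbers. With the replicate number as a block over all libraries only CES1 stayed past the threshold (2.65 ± 0.31). That block also spans groups in which libraries of the same number did not deviate together. With the block on the 6 WT libraries alone, an alternative chosen after seeing the data, 5 of the 9 were past the threshold: these 3, AHRR (-0.76 ± 0.10) and TIPARP (0.52 ± 0.09). The share of all genes called at that setting is not given here, and nothing is read from this count either. Without WT PCI replicate 2 or 3 or WT Tuba replicate 1, none of the 3 was called. Without WT Tuba replicate 2 only CES1 was, and without WT Tuba replicate 3 only ABCC3. The fold changes in these fits were 2.31 to 3.12 for CES1, 1.22 to 1.59 for HSD11B1 and -1.25 to -1.02 for ABCC3.

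Between 6CD1m and 6CD2m only the line changed. HSD11B1 was lower and NQO1 higher in 6CD1m, so 2 of 9 genes were called, against 13.2% of all genes, and 6 of 9 had groups apart, against 51.7%. With 9 genes, neither share is read as a result about them. The median log2 fold change of the 9 genes was -0.47, against 0.05 over all genes tested.

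In the comparisons of a mutant line with WT cells on the same inhibitor, both the line and the time in inhibitor differed, and their parts cannot be told apart. In 6CD2m against WT Tuba, 3 of 9 genes were called (HSD11B1 and CYP1A1 higher, NQO1 lower), against 11.8% of all genes, and 6 had groups apart, against 50%. In 6CD1m against WT Tuba, HSD11B1 was called, against 0.793% of all genes, and 2 of 9 had groups apart, against 31%. Since WT Tuba also entered the first comparison, the values of both comparisons with WT Tuba are not independent of it. Nothing is read from their counts.

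The largest number of calls came in 8CDm against WT PCI. CES1, HSD11B1 and TIPARP were higher and NQO1, ABCC3 and AHRR lower in 8CDm, 6 of 9 genes, where 11% of all genes were called. Groups were apart for 8 of 9, against 48.1%. Since WT PCI also entered the first comparison, these values are not independent of it. In a fit on these 6 libraries alone, NQO1, ABCC3 and HSD11B1 stayed past the threshold (adjusted p = 0.00034, 0.00032 and 0.00062), and CES1, TIPARP and AHRR did not (adjusted p = 0.0015, 0.0030 and 0.0031).

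In 6CD2m against 8CDm the line and the inhibitor changed together. HSD11B1 was higher and ARNT lower in 6CD2m, 2 of 9 genes, against 9.96% of all genes. Groups were apart for 6, against 51.6%.

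The difference between the inhibitors in WT cells was then set against the difference between 6CD2m with Tuba and 8CDm with PCI, by an interaction term. ABCC3 was the 1 gene of 9 called, where 5.16% of all genes were, and nothing is read from this count, since the term contains the WT difference that the list is treated as chosen by. In WT cells it was lower with Tuba by -1.15 ± 0.14, while between the mutant lines it was higher by 0.49 ± 0.14, and the term was -1.64 ± 0.20, given as a description with no p-value. Line and duration changed with this contrast.

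Other genes of the receptor's complex were also tested. Among those tested outside the 10 genes, ARNT2, a paralog of ARNT, was lower in 6CD2m than in WT Tuba by -1.09 ± 0.10 (adjusted p = 8.2e-07). ARNT2 was also higher in 6CD1m than in 6CD2m by 0.61 ± 0.10 (adjusted p = 0.00020), a call lost without 6CD1m replicate 2 or 6CD2m replicate 1 or 3 (adjusted p up to 0.0021). In the other 4 comparisons between groups edgeR called 0 of 9 such genes, with 3 to 6 at an unadjusted p under 0.05 and 0 to 3 called by DESeq2. Of all genes, 0.42% were called in WT Tuba against WT PCI and 0.793% in 6CD1m against WT Tuba. The shares were 11% in 8CDm against WT PCI and 9.96% in 6CD2m against 8CDm. Nothing is read from the count of 0.

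Much of the receptor's target battery was silent in these cells. Of its 17 genes, 10 passed the filter, and CYP1A2, GSTA2 and EREG, named after their values were seen, had 0 counts in every library. In 8CDm against WT PCI, 3 of the 6 tested genes outside the 10 were called, all lower, where 6.27% of all genes were called lower. SERPINB2, a protease inhibitor, was at 0.453 ± 0.210 against 6.88 ± 1.03 CPM, and PTGS2, the inducible cyclooxygenase, at 2.35 ± 0.718 against 9.90 ± 3.99 CPM (SD, n = 3). PTGS2 lost the call without 8CDm replicate 1 or 2 (adjusted p up to 0.0016). STC2, a secreted glycoprotein, was lower by -1.06 ± 0.09 (adjusted p = 9.1e-07). SERPINB2 and PTGS2 were lower in 6CD2m than in WT Tuba as well (adjusted p = 3.2e-06 and 6.6e-05). In 6CD1m SERPINB2 had 0 counts in all libraries, which against WT Tuba is at least 20.2-fold lower, taking 3 counts per library as the floor.

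NQO1 and ABCC3 also belong to the NRF2 target list, 26 genes that were all tested, 24 of them outside the 10. In 8CDm against WT PCI, 11 of the 24 were lower and 0 higher, where 6.27% of all genes were called lower. MGST1, a membrane glutathione transferase, was at 0.967 ± 0.203 against 32.2 ± 10.3 CPM (SD, n = 3), a difference of -5.05 ± 0.29 (adjusted p = 8.9e-09). HMOX1, which degrades haem, was lower by -1.89 ± 0.16 (adjusted p = 4.4e-07) and FTL, the ferritin light chain, by -1.82 ± 0.11 (adjusted p = 1.3e-08). AKR1C1, an aldo-keto reductase whose near-identical relatives make its count uncertain, was lower by -3.19 ± 0.46 (adjusted p = 9.1e-05), and was at the threshold without 8CDm replicate 1. Without 8CDm replicate 1, 2 or 3 the number called was 7, and without a WT PCI library it was 10 or 11.

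In 6CD2m against WT Tuba 6 of the 24 were lower and 1 higher, where 7.22% of all genes were called lower. AKR1C1 (-3.77 ± 0.47, adjusted p = 1.8e-05), HMOX1 (-1.10 ± 0.16, adjusted p = 6.9e-05), SRXN1, which repairs peroxiredoxins (-0.84 ± 0.16, adjusted p = 0.00088), and FTL (-0.79 ± 0.10, adjusted p = 3.7e-05) were among the lower genes. SRXN1 missed the threshold with GC offsets (adjusted p = 0.0038) and in each of the 6 fits without 1 library (adjusted p from 0.0024 to 0.0082). The number called was 3 without 6CD2m replicate 3, 4 without 6CD2m replicate 1 or 2 or WT Tuba replicate 2 or 3, and 5 without WT Tuba replicate 1. GCLC, which makes glutathione's precursor and was named after its values were seen, was the higher gene (0.72 ± 0.13, adjusted p = 0.00071), a call kept without WT Tuba replicate 1 and lost without each other library. MGST1 was at 65.1 CPM in 6CD2m against 33.1 in WT Tuba and missed the threshold (adjusted p = 0.0020). In 6CD2m against 8CDm 5 of the 24 were higher and 0 lower, where 5.6% of all genes were called higher, led by MGST1 (6.06 ± 0.29, adjusted p = 9.0e-10) and the malic enzyme ME1 (1.75 ± 0.25, adjusted p = 6.8e-05). Without any 1 of the 6 libraries the number was 2 or 3. Between the inhibitors in WT cells edgeR called 0 of the 24, where 0.42% of all genes were called. Of the 24, 7 had an unadjusted p under 0.05 and 4 were called by DESeq2. In 6CD1m against WT Tuba edgeR also called 0, where 0.793% of all genes were called, with 10 at an unadjusted p under 0.05 and 1 called by DESeq2. With such small shares, neither count of 0 is read as a result about these genes.

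NFE2L2, which encodes NRF2, was called in none of the 6 comparisons between groups, and in 8CDm against WT PCI it differed by 0.33 ± 0.17 (adjusted p = 0.15). KEAP1, which marks NRF2 for degradation, was lower in 8CDm than in WT PCI by -0.76 ± 0.09 (adjusted p = 1.0e-05), but with GC offsets it missed the threshold (-0.43 ± 0.12, adjusted p = 0.012). NFE2L2 was named after its values were seen. Among 7 tested xenobiotic sensors outside the 10, 1 was called in 6CD2m against WT Tuba, where 11.8% of all genes were called. It was PPARA, a lipid sensor, lower in 6CD2m (-0.95 ± 0.13, adjusted p = 6.2e-05). PPARA was also the 1 called in 6CD2m against 8CDm (-0.83 ± 0.13, adjusted p = 0.00022), where 9.96% of all genes were. That call was lost in 4 of the 6 fits without 1 library. KEAP1 was the 1 called in 8CDm against WT PCI, where 11% of all genes were. Nothing is read from these counts.

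**Figure D3:**
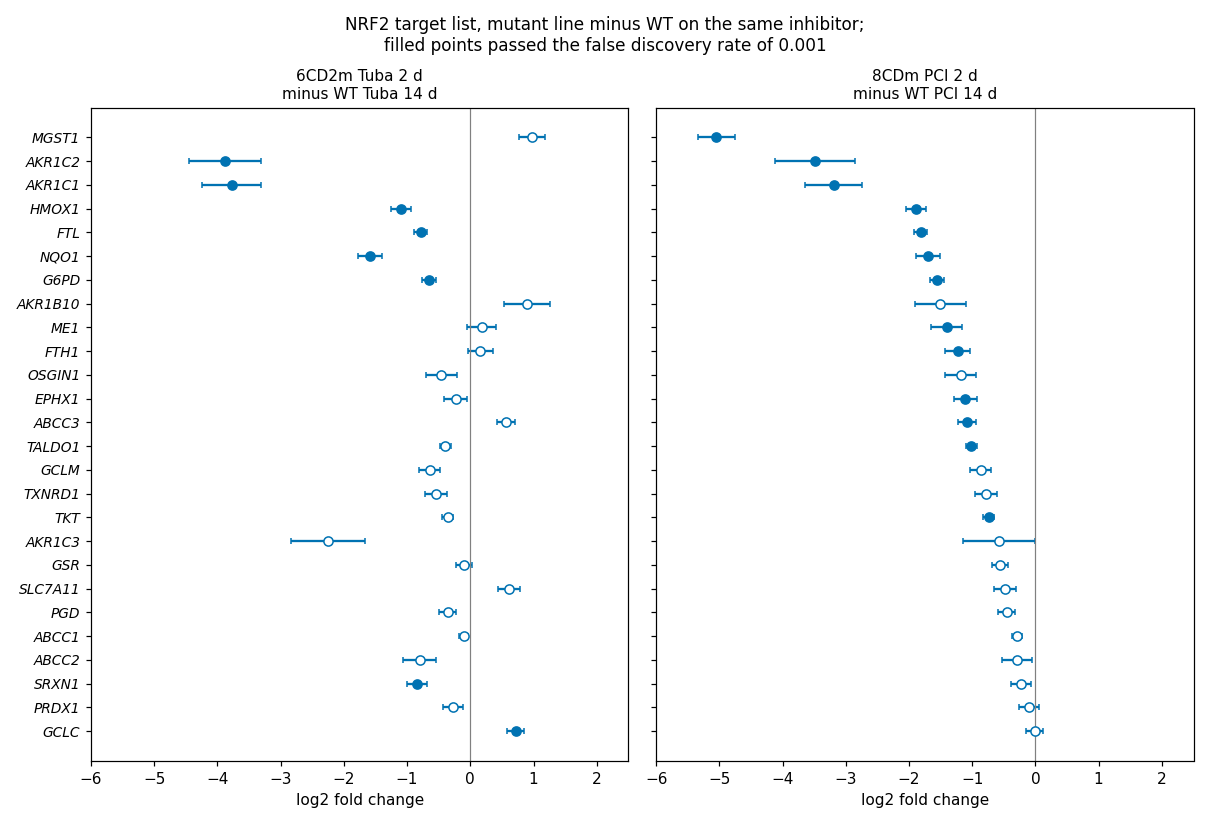
Log2 fold change with standard error (horizontal axis) of the 26 NRF2 target genes, NQO1 and ABCC3 included, in 6CD2m minus WT Tuba (left) and 8CDm minus WT PCI (right). Filled points passed the false discovery rate of 0.001. On the right MGST1 lies at -5.05 and FTL at -1.82, while on the left GCLC is the 1 gene called higher.

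CES1 had a relative that varied more widely. CES3, another carboxylesterase, was at 14.3 ± 1.48 CPM in 6CD2m against 1.14 ± 0.415 in WT Tuba (SD, n = 3; 3.66 ± 0.30, adjusted p = 3.5e-07) and at 11.3 ± 0.265 in 8CDm against 1.32 ± 0.537 in WT PCI (3.10 ± 0.30, adjusted p = 2.0e-06). It was lower in 6CD1m than in 6CD2m by -3.22 ± 0.30 (adjusted p = 1.2e-06). Among 7 tested esterases and hydrolases outside the 10, 3 were called in 6CD1m against 6CD2m, all lower, where 13.2% of all genes were called. In 6CD2m against WT Tuba 2 were called, both higher, where 11.8% of all genes were called, and 1 without WT Tuba replicate 3. In 8CDm against WT PCI 2 were called, against 11% of all genes: CES3, and EPHX1, the microsomal epoxide hydrolase, which was lower (-1.11 ± 0.18, adjusted p = 0.00030). The call for EPHX1 was lost without any 1 of the 8CDm libraries (adjusted p up to 0.0027) and with GC offsets (adjusted p = 0.0033).

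Among 16 tested cytochrome P450s and electron donors, 2 were called in 6CD2m against WT Tuba, where 11.8% of all genes were, and 3 in 6CD1m against 6CD2m, where 13.2% were. In 8CDm against WT PCI 3 were called, where 11% of all genes were, and 1 with GC offsets. In 6CD2m against 8CDm 4 were called, where 9.96% of all genes were, and 1 without 6CD2m replicate 3 or without 8CDm replicate 3. In 6CD1m against 6CD2m the number was 1 without 6CD1m replicate 2 or without 6CD2m replicate 2. CYP2S1, itself known as a target of the receptor, was higher in 6CD2m than in WT Tuba by 1.87 ± 0.21 (adjusted p = 6.2e-06) and higher in 8CDm than in WT PCI by 1.55 ± 0.22 (adjusted p = 7.3e-05). CYB5A, cytochrome b5, had 0 counts in every 6CD2m library and 7.87 ± 0.617 CPM in WT Tuba, which is at least 44.3-fold lower with 3 counts per library as the floor. Of 14 tested conjugating enzymes, 4 were lower and 0 higher in 8CDm against WT PCI, where 6.27% of all genes were called lower, and with GC offsets 2 were called. In 6CD2m against WT Tuba 3 were lower, where 7.22% of all genes were, and 1 was higher. In 6CD1m against 6CD2m 3 were higher and 4 lower, where 13.2% of all genes were called, and the number fell to between 1 and 6 in the fits without 1 library, with 1 without 6CD2m replicate 2. In 6CD2m against 8CDm 4 were higher and 2 lower, where 9.96% of all genes were called, and 4 were called without any 1 of the 6 libraries. GSTP1, a glutathione transferase, was lower in 8CDm than in WT PCI and in 6CD2m than in WT Tuba (-0.95 ± 0.10, adjusted p = 6.0e-06, and -0.87 ± 0.10, adjusted p = 1.0e-05), and missed the threshold in both with GC offsets (adjusted p = 0.016 and 0.0033). SULT1A1, a sulfotransferase with near copies that make its count uncertain, was the gene higher in 6CD2m than in WT Tuba (3.08 ± 0.42, adjusted p = 4.5e-05).

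Among 7 other tested efflux transporters, 1 was called in 6CD1m against 6CD2m, where 13.2% of all genes were called. Nothing is read from this count. It was ABCC5, called in this comparison only, and higher in 6CD1m by 0.65 ± 0.11 (adjusted p = 0.00029). Among the fits that left out 1 library, the call held only without 6CD1m replicate 3.

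HSD11B1 needs NADPH supplied by H6PD in the endoplasmic reticulum, and H6PD went the other way in 8CDm against WT PCI, at 95.6 ± 7.80 against 237 ± 6.60 CPM (-1.31 ± 0.09, adjusted p = 5.6e-08). NR3C1, the glucocorticoid receptor, named after its values were seen, was not called (0.22 ± 0.16 in that comparison, adjusted p = 0.30). Of 10 tested genes of cortisol activation and glucocorticoid response, 4 were called in 8CDm against WT PCI, 1 higher (TSC22D3, 0.90 ± 0.11, adjusted p = 2.7e-05) and 3 lower, where 11% of all genes were called. In 6CD2m against 8CDm 7 were called, 3 higher and 4 lower, where 9.96% of all genes were called. SGK1 was higher by 1.45 ± 0.11 (adjusted p = 1.3e-07). KLF9 (-1.14 ± 0.09, adjusted p = 1.6e-07), PER1 (-1.44 ± 0.16, adjusted p = 5.8e-06) and TSC22D3 (-1.18 ± 0.11, adjusted p = 1.6e-06) were lower. In 6CD2m against WT Tuba 2 were called, both lower, where 7.22% of all genes were called lower. They were KLF9 (-1.39 ± 0.09, adjusted p = 2.2e-08) and DUSP1 (-1.06 ± 0.11, adjusted p = 3.6e-06).

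ARNT also serves the hypoxia response, and 9 genes of that list were tested. Of these 4 were called in 6CD1m against 6CD2m, where 13.2% of all genes were, with CA9, a carbonic anhydrase, higher by 2.21 ± 0.18 (adjusted p = 2.8e-07) and 3 lower, and without any 1 of the 6 libraries 2 or 3 were called. In 8CDm, where ARNT was highest, 2 were called against WT PCI, where 11% of all genes were. NDRG1 was higher (1.08 ± 0.10, adjusted p = 1.8e-06) and VEGFA, the angiogenic factor, lower (-1.47 ± 0.15, adjusted p = 4.3e-06) than in WT PCI.

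The genes whose log2 CPM was most like that of HSD11B1 over the 15 libraries were AKAP12 (Pearson's r = 0.981), GTPBP10 (0.973), EHHADH (0.972), TAF13 (0.968) and LGMN (0.965). AKAP12, a kinase anchor, had group means of 94.5 CPM in 6CD1m and 288 in 6CD2m. For CES1 they were GJC1 (0.954), FZD4 (0.941), PGM2L1 (0.936), GSN (0.930) and SLC8A1 (0.927). The points share libraries and groups, and these correlations are a description only.

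**Figure D4:**
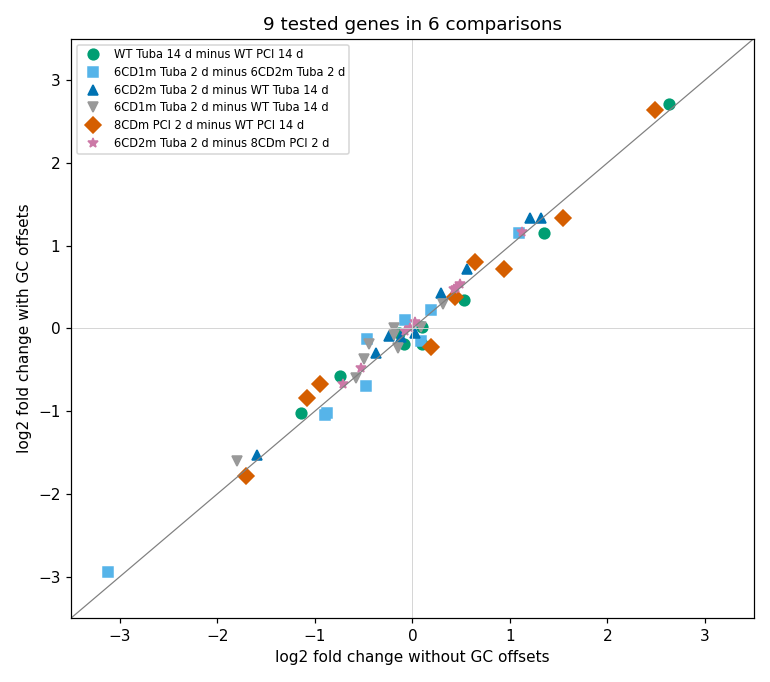
Log2 fold change of the 9 tested genes in 6 comparisons without (horizontal axis) and with (vertical axis) GC offsets; the grey line marks equal values. HSD11B1 in 6CD1m minus 6CD2m moved from -3.12 to -2.94 and AHRR in 8CDm minus WT PCI from -0.95 to -0.67.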

How the data were processed

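RNA was rRNA-depleted and sequenced as paired 150-base reads, and the authors deposited 1 table of expected counts per gene for 15 libraries. The submitters' processing notes name GRCh38, Trimmomatic 0.39, Bowtie2 2.4.5, RSEM 1.3.3 and DESeq2 1.38.2. Annotation and strandedness are not given in the sources used here. Of nonzero values, 21.8% were not whole (tolerance 1e-09), and all were rounded. Gene positions came from GENCODE 29 (57055 IDs matched) and promoters from RefSeq (GRCh38.p14).

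The analysis used edgeR 4.0.16 (R 4.3.3), with filterByExpr, TMM, and the quasi-likelihood test with group means in 1 model of all 15 libraries, with Benjamini-Hochberg adjustment over 19535 genes and a false discovery rate of 0.001. The scripts were tested on simulated data. Floors (3 counts) cover counting error only. A ± on a log2 fold change is the standard error of the fit. On a CPM value it is the SD between the libraries of a group. Alternatives were upper-quartile scaling, TMM on nuclear genes other than small structural RNAs, DESeq2 1.42.0, other filters, GC offsets, a replicate block, only the libraries compared, a false discovery rate of 0.05 and each library left out.

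Each group had 3 libraries, which the study calls biological replicates. Replicates with the same number deviated together in the WT comparison (r = 0.717, 0.396 and 0.380), so its blocked values are printed beside it. Replicates 2 and 3 also did so across numbers. WT Tuba replicate 2 with WT PCI replicate 3 had r = 0.460, and WT Tuba replicate 3 with WT PCI replicate 2 had r = 0.282. The pattern set replicate 1 apart from 2 and 3, and a pairing by number was not established. No library was a duplicate of another. The members and lists were chosen with earlier results of these data known. All 10 members are named. Of each list, up to 4 genes per comparison were eligible for naming, the largest fold changes among called genes whose mean log2 CPM reached 1. For the 2 members with the widest group means, the 5 genes most alike are named. The result of 1 gene of the receptor's complex is not reported here.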

Additional observations from a re-analysis of the deposited data

Results flagged for a closer look

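For ABCC3, the conjugate exporter, the fitted difference between Tubastatin A and PCI-34051 was -1.15 ± 0.14 on the log2 scale in WT cells and 0.49 ± 0.14 between the 6CD2m and 8CDm lines, and it was listed because the interaction term, -1.64 ± 0.20, passed the threshold. It ran from -1.74 to -1.52 over the 12 fits that left out 1 library. The term contains the WT difference that the list is treated as chosen by, so it is a description with no p-value. Line and duration of treatment changed with this contrast and cannot be told apart.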

How the results depend on the processing

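No called member changed sign under any alternative. Calls of all genes moved with the setting as well, in the interaction from 1008 to 1959 with DESeq2 and 1478 with GC offsets. A changed number of called members is therefore not read as a result about them. The numbers of the 9 tested members called are given for the settings that moved them by over 1.5 times. In WT Tuba against WT PCI (3 called) they were 0 with only the libraries compared, 1 with the replicate block, 5 at a false discovery rate of 0.05 and 5 with only the libraries compared and the replicate block, an alternative chosen after seeing the data, and 0 to 3 without 1 library. In 6CD1m against 6CD2m (2 called) they were 1 with only the libraries compared, 1 with the block, 5 at 0.05 and 1 to 2 without 1 library. In 6CD2m against WT Tuba (3 called) they were 5 at 0.05 and 2 to 3 without 1 library. In 6CD1m against WT Tuba (1 called) they were 0 with only the libraries compared, with or without the block. In 8CDm against WT PCI (6 called) they were 3 with only the libraries compared, 0 with the block added to that, and 4 to 6 without 1 library. In 6CD2m against 8CDm (2 called) they were 4 with only the libraries compared, 4 with the block added, 1 with the block over all libraries, 4 with GC offsets, 4 at 0.05 and 0 to 1 without 1 library. For the interaction (1 called) they were 4 with DESeq2, 3 with no filter, 2 with GC offsets, 5 at 0.05 and 1 to 3 without 1 library, the 3 being without WT PCI replicate 1. The causes were not tested. Where the numbers pair libraries only by name, the block left the members' fold changes in place: CYP1A1 in 6CD2m against WT Tuba had adjusted p = 0.0019 with it. Of all genes called in 6CD2m against WT Tuba, 39.0% were higher in 6CD2m and the rest lower. With upper-quartile scaling 49.7% of the called genes were higher. Upper-quartile scaling moved the median of all genes by over 0.1 in 6CD1m against WT Tuba (from -0.01 to 0.10) and in the interaction (from -0.00438 to -0.13). Low counts limit CYP1B1, CYP1A1 and CES1 most.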
